A study of Homo sapiens with 12 samples.

Results

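The genes described here are 10 members of the BCL2 family of apoptosis regulators, MCL1, BCL2, BCL2L1, BCL2L11, PMAIP1, BBC3, BID, BAD, BAX and BAK1. They were chosen by gene symbol, with earlier results of these data known. All 10 were among the 18244 genes with a probe set on the array. They held 46 of the 49495 rows of the table, and each gene was read from its brightest probe set on average over the 12 arrays (the leading probe set). Expression was measured on GeneChip PrimeView arrays, which read biotin-labelled RNA with short probes near the 3′ ends of transcripts. The cells were Kelly and IMR-32, a pair of established human neuroblastoma (NB) lines with amplified MYCN, and the treatment was THZ531, a compound that binds covalently to CDK12 and CDK13 and thereby inactivates these transcriptional kinases. Each line was kept for 6 h in DMSO, in 100 nM THZ531 or in 400 nM THZ531, and each of these 6 groups had 2 arrays, which the labels call biological duplicates. All groups shared the same medium and no genetic change was introduced in any of them. Each line stands for itself, and other NB lines were not measured here.

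BCL2 family proteins decide whether the outer membrane of mitochondria stays intact. Guardian proteins such as BCL2, BCL-xL and MCL1 hold the pore-forming effectors BAX and BAK in check, and the BH3-only proteins BIM, NOXA, PUMA, BID and BAD bind the guardians or activate the effectors, so that cytochrome c is released and caspases are switched on. NB cells are known to lean on BCL2 or MCL1 for survival, and the mRNAs of MCL1 and PMAIP1 are known to turn over quickly.

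The deposited intensities had been scaled to ERCC spike-ins, synthetic RNAs added to each sample, whose mean log2 level was 6.26 to 6.29 on every array. Of the NB markers, 8 of 8 were above the median of all rows of the same array on every array, while 1 of 5 mesenchymal, 0 of 2 haematopoietic and 0 of 4 epithelial markers were. The median row named below is the median of the row means over the arrays (6.40 in log2). Duplicates of several treated groups differed. The median gene lay 0.50 below the DMSO mean in IMR-32 100 nM replicate 1 and 0.06 below in replicate 2. In Kelly it lay 0.17 and 0.48 below in the 100 nM arrays and 0.34 and 0.16 below in the 400 nM arrays, and in IMR-32 at 400 nM it lay 0.63 and 0.75 below. The deviations of same-numbered arrays at 100 and 400 nM in Kelly had a correlation of −0.781 over genes. Samples were kept as labelled, and whether any were exchanged was not tested, so the values of the treated Kelly groups and of IMR-32 at 100 nM hold only as far as their labels do. Results are also given without 3 arrays (100 nM replicate 2 of both lines and Kelly 400 nM replicate 2), picked because they stood apart from replicate 1 in earlier results of these data. That choice keeps the Kelly 100 nM array nearer to DMSO and the Kelly 400 nM array farther from it, leaves 1 array in each of the 3 groups, whose spread is then taken from the other groups, and describes those arrays rather than testing the dose. Hybridisation controls, which are added after RNA isolation, moved with these values. Their mean log2 level was 10.51 and 10.53 for IMR-32 at 400 nM, where the DMSO duplicates had 10.85 and 11.31, and their part in the results was not tested. Levels below are log2 intensities, a change of 1 on that scale being a factor of 2, and changes are treated minus DMSO with the standard error (SE) of a limma fit. A gene was called changed at a Benjamini-Hochberg adjusted p under 0.05 over all 18244 genes. An exact permutation test of 2 against 2 arrays cannot go below 0.333 and was therefore not used for single genes.

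**Figure D1:**
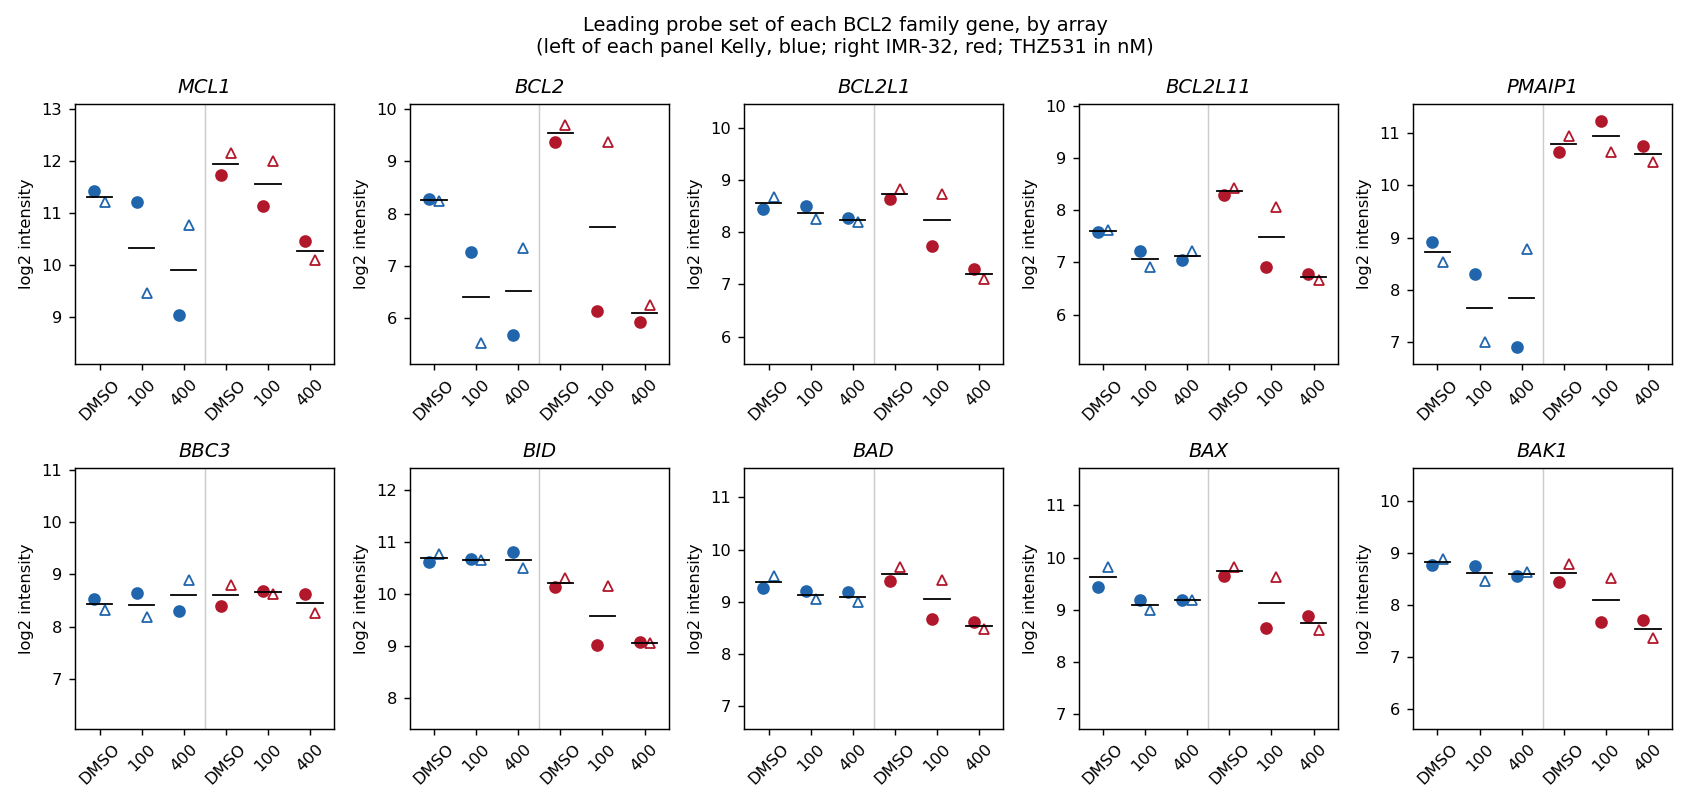
Log2 intensity of the leading probe set of each gene on each of the 12 arrays, by line and THZ531 dose (circle, replicate 1; triangle, replicate 2; bar, group mean; every panel spans the same range). The IMR-32 400 nM duplicates lie close together for all 10 genes, whereas the BCL2 duplicates at 100 nM in IMR-32 lie at 6.13 and 9.37.

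In IMR-32 cells, 400 nM THZ531 lowered the mRNA of 7 of the 10 genes at the deposited scaling and none rose, whereas after median centring or quantile normalization BCL2 alone was called lower and BBC3 was called higher. Of these 7 genes, read from their leading probe sets, BCL2 fell most, followed by BCL2L11 and BCL2L1. BID, BAK1, BAX and BAD fell to about the same extent as each other. MCL1, at −1.66 beside −1.64 for BCL2L11, was lower on both treated arrays but was not called. The levels of the BH3-only genes PMAIP1 and BBC3 overlapped between treated and DMSO arrays. The order was different once each gene's probe sets were averaged. BAK1 (−1.61), BCL2 (−1.60) and MCL1 (−1.58) then lay close together. BCL2L1 (−0.60) and BCL2L11 (−0.56, not called) then fell less than BID (−1.21), BAX (−1.02) and BAD (−0.88). The 7 calls stand against a background in which 39% of all genes were called lower and 0.395% higher (7123 and 72 genes), so a fall was common in this comparison. Treated arrays lay wholly below DMSO for 8 of the 10, where 76.6% of all genes did so. The median change was −1.11 over the 10 genes and −0.67 over all genes. All 10 lay above the median row on average, and over the 10487 genes that did so the median was −1.20 and 58.9% were called lower, so the members' median was no lower than that of genes at a like level. Per the study's methods, cells were counted before lysis, a set number was taken per replicate and the normalization took cell numbers into account. How far this removed differences in cell number was not tested.

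Among the guardians, BCL2 had levels of 9.38 and 9.70 in DMSO and 5.93 and 6.24 at 400 nM of THZ531. The treated arrays were low together and the groups were far apart. The change was −3.46 ± 0.98 (SE; limma adjusted p = 0.0263), or 0.0911 of the DMSO level, and 1.63% of genes had a larger fall. BCL2L1, which encodes BCL-xL, had 8.64 and 8.84 in DMSO and 7.30 and 7.10 at 400 nM. Its groups did not overlap, and it fell by 1.54 ± 0.31 (adjusted p = 0.0174). MCL1 had 11.72 and 12.14 in DMSO and 10.46 and 10.09 at 400 nM. Here too both treated arrays were below both DMSO arrays, but the change of −1.66 ± 0.66 missed the threshold (limma adjusted p = 0.0727), where the SE holds the spread of all 6 groups. With the spread taken from the IMR-32 400 nM and DMSO arrays alone, MCL1 was called at the same change. Every member had the same SE of 0.256 in that fit, so it is not the spread of MCL1 itself. Without the 3 arrays the change was also the same, with an SE of 0.222. Those arrays were picked because they stood apart and enter here only through the spread, so a smaller SE was built in. Neither fit is a further test of MCL1.

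Of the BH3-only genes, BCL2L11, which encodes BIM, had 8.30 and 8.42 in DMSO and 6.78 and 6.67 at 400 nM of THZ531. The duplicates were tight and well apart, and the level fell by 1.64 ± 0.34 (limma adjusted p = 0.0174). BID, the member that caspase-8 cleaves to link death receptors to mitochondria, had 10.13 and 10.31 in DMSO and 9.08 and 9.06 at 400 nM, a change of −1.15 ± 0.33 (adjusted p = 0.0269). BAD, whose binding to guardians is set by phosphorylation, had 9.40 and 9.66 in DMSO and 8.62 and 8.47 at 400 nM, a change of −0.99 ± 0.27 (adjusted p = 0.0238). For both genes every treated array was below every DMSO array.

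PMAIP1 and BBC3 encode NOXA and PUMA, which p53 and cellular stress can induce, and NOXA binds MCL1 in particular. PMAIP1 had 10.64 and 10.94 in DMSO and 10.76 and 10.45 at 400 nM of THZ531. The arrays of the groups overlapped, and the change of −0.18 ± 0.60 had a 95% interval of −1.55 to 1.18 (limma adjusted p = 0.82). BBC3 had 8.40 and 8.80 in DMSO and 8.63 and 8.26 at 400 nM. It overlapped too, with a change of −0.16 ± 0.28 and an interval of −0.80 to 0.49 (adjusted p = 0.674). Against the median gene the values were 0.49 higher for PMAIP1 and 0.52 higher for BBC3, and 81.7% and 83.4% of genes had a lower change.

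Both effector genes fell in IMR-32. BAX had 9.65 and 9.83 in DMSO and 8.87 and 8.61 at 400 nM, and fell by 1.00 ± 0.32 (limma adjusted p = 0.0361). BAK1 had 8.44 and 8.79 in DMSO and 7.72 and 7.36 at 400 nM, and fell by 1.07 ± 0.30 (adjusted p = 0.025). The groups overlapped for neither gene, and both changes were close to a factor of 2 on the leading probe sets, while 3 other probe sets of BAK1 had −2.02, −2.30 and −2.26. With 2 arrays a group each of these calls was fragile. Dropping any 1 array of this comparison (IMR-32 DMSO replicate 1 or 2, or 400 nM replicate 1 or 2) took the number of called members from 7 to 0, although the 7 changes stayed between −3.62 and −0.86, with adjusted p from 0.058 to 0.181. Without the 3 arrays 8 members and 57.9% of all genes were called lower, and with the trend and robust options BAX was not called (adjusted p = 0.0571).

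**Figure D2:**
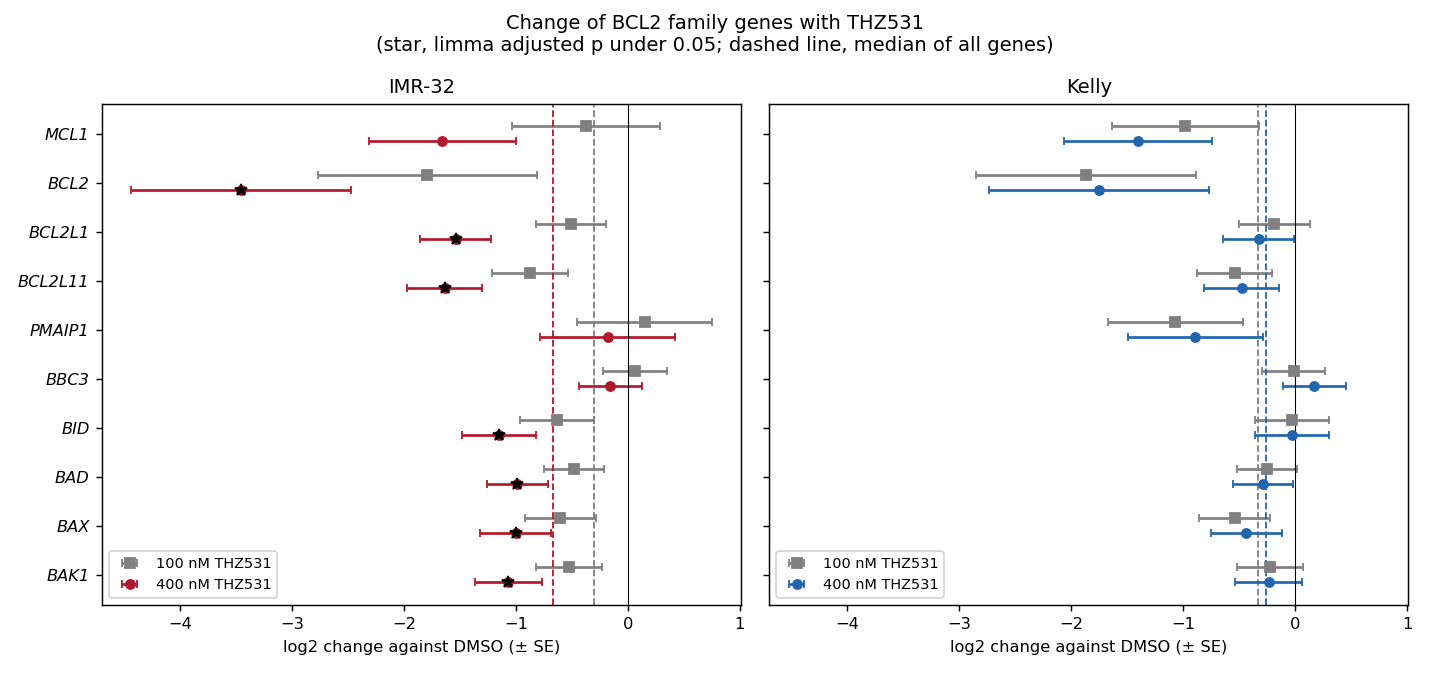
Change of each gene at 100 nM (squares) and 400 nM (circles) THZ531 against DMSO in IMR-32 (left) and Kelly (right), with SE bars. Stars mark limma adjusted p under 0.05 and dashed lines the median of all genes. The 7 stars are all at 400 nM in IMR-32, between −3.46 and −0.99, and after median centring or quantile normalization BCL2 is the only one of the 7 still called.

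In Kelly cells at 400 nM none of the 10 genes was called, and neither was any other gene in this comparison (0% lower and 0% higher by limma, while without adjustment 1176 genes were lower and 136 higher at p under 0.05). None of the 10 had an unadjusted p under 0.05. The lowest values were again those of BCL2 and MCL1, and treated arrays lay wholly below DMSO for 7 of the 10 genes, where 48.8% of all genes did so. The median change was −0.38 over the 10 genes, −0.26 over all genes and −0.54 over the genes above the median row.

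MCL1 had 11.43 and 11.20 in Kelly DMSO and 9.05 and 10.78 at 400 nM, a change of −1.40 ± 0.66 (limma adjusted p = 0.503). BCL2 had 8.27 and 8.25 in DMSO and 5.68 and 7.34 at 400 nM, a change of −1.75 ± 0.98 (adjusted p = 0.503). PMAIP1 had 8.92 and 8.53 in DMSO and 6.89 and 8.77 at 400 nM, a change of −0.89 ± 0.60 (adjusted p = 0.52). In each of the 3 genes, replicate 1 at 400 nM carried most of the difference, and for PMAIP1 replicate 2 lay between the DMSO arrays. The values of the other 7 genes were nearer to 0. BAX had 9.43 and 9.83 in DMSO and 9.19 on both treated arrays (−0.44 ± 0.32), BCL2L11 changed by −0.48 ± 0.34 and BCL2L1 by −0.33 ± 0.31, and BID had 10.61 and 10.76 in DMSO and 10.82 and 10.51 at 400 nM, a difference of −0.03 ± 0.33. BAD (−0.29 ± 0.27), BAK1 (−0.23 ± 0.30) and BBC3 (0.17 ± 0.28) were likewise within about 1 SE of 0.

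Without the 3 arrays, which leaves the Kelly 400 nM array with the lower values, MCL1 (−2.26 ± 0.27), BCL2 (−2.58 ± 0.26) and PMAIP1 (−1.83 ± 0.27) were called lower in Kelly at 400 nM by limma, as were 33.4% of all genes. In that fit BCL2L1 was at −0.28 ± 0.25 and BID at 0.13 ± 0.25. Without the Kelly 400 nM replicate 1 instead, PMAIP1 stood at 0.05, so 1 array decided the sign of that value.

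At 100 nM neither line had a called member, and no gene at all was called in either (0% lower and 0% higher). Unadjusted p-values under 0.05 were found for 723 genes lower and 83 higher in IMR-32, and for 1813 lower and 136 higher in Kelly. The arrays lay below DMSO for 3 of the 10 genes in IMR-32, against 27% of all genes, and for 6 of 10 in Kelly, against 53.6%. In IMR-32 the duplicates disagreed. BCL2 had 6.13 in replicate 1, between both 400 nM values, and 9.37 in replicate 2, beside the lower DMSO value of 9.38, for a change of −1.79 ± 0.98 (limma adjusted p = 0.465). BCL2L11 had 6.91 and 8.07, MCL1 had 11.13 and 11.99, and BID had 9.02 and 10.15. In each of these the first value was the low one, whereas for PMAIP1 the first value was the high one at 11.24 and 10.64. Without IMR-32 100 nM replicate 2, which leaves a single array whose spread is assumed to be that of the other groups, 7 members were called lower at 100 nM (BCL2 −3.41 ± 0.77, BCL2L11 −1.45 ± 0.22, BID −1.20 ± 0.22, BAX −1.10 ± 0.25, BCL2L1 −1.01 ± 0.23, BAK1 −0.95 ± 0.26 and BAD −0.86 ± 0.23), as were 27.5% of all genes.

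In Kelly at 100 nM, BCL2 had 7.27 and 5.52 (−1.87 ± 0.98, limma adjusted p = 0.427), MCL1 had 11.21 and 9.46 (−0.98 ± 0.66, adjusted p = 0.467) and PMAIP1 had 8.30 and 7.0 (−1.07 ± 0.60, adjusted p = 0.432). Replicate 2 was the low array in all 3. For BCL2 and PMAIP1 both treated arrays were below DMSO, and for MCL1 they were not. BBC3 (−0.01 ± 0.28) and BID (−0.03 ± 0.33) had nearly the DMSO mean. Without the 3 arrays, BCL2 alone was called (−0.99 ± 0.26, adjusted p = 0.0367), as were 3.97% of all genes lower.

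From 100 to 400 nM no member was called in either line. The background was 0.00548% lower (1 gene) and 0% higher in IMR-32, and 0% in both directions in Kelly. All 10 genes had a negative mean step in IMR-32, the most negative being BCL2 (−1.67 ± 0.98), MCL1 (−1.28 ± 0.66) and BCL2L1 (−1.03 ± 0.31, limma adjusted p = 0.2). Without IMR-32 100 nM replicate 1, again with a single array left at 100 nM, 7 members were called lower in this step, as were 32.6% of all genes. In Kelly the 10 steps ran from −0.42 (MCL1) to 0.18 (BBC3). The 100 nM calls in IMR-32 therefore turned on which duplicate was used, while in Kelly no member was called at 100 nM without either 100 nM array.

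The difference between the lines in the effect of 400 nM was tested directly, and no member passed (0% of all genes in either direction, while without adjustment 1871 genes were lower and 33 higher at p under 0.05). The change in IMR-32 minus that in Kelly was −1.21 ± 0.44 for BCL2L1, −1.16 ± 0.47 for BCL2L11 and −1.12 ± 0.47 for BID, and these were the 3 members with an unadjusted p under 0.05 (limma adjusted p = 0.449 for each). For PMAIP1 the difference was 0.71 ± 0.85 in the other direction, and 99.1% of genes had a lower one. These differences depended on the scaling. After median centring they were −0.60, −0.55 and −0.51, and after quantile normalization −0.36, −0.31 and −0.24, with none of the 3 genes called. With the replicate number as a block none was called either (limma adjusted p = 0.506 for each). With the spread taken from the DMSO and 400 nM arrays alone, the same 3 genes were called (adjusted p = 0.028, 0.0241 and 0.0349), as were 11.4% of all genes lower. Leaving out IMR-32 100 nM replicate 1 or replicate 2 left the 3 changes the same, since these arrays enter only through the spread. The IMR-32 100 nM duplicates lay far apart, so a smaller SE was built in, and neither fit is a further test. Without the 3 arrays the differences were −1.26 ± 0.33 for BCL2L1, −1.07 ± 0.32 for BCL2L11 and −1.28 ± 0.32 for BID. PMAIP1 was then at 1.65 ± 0.35, and the Kelly 400 nM array kept there is the one with the lower PMAIP1 value.

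Averaged over both lines, 400 nM lowered 7 of the 10 genes and raised none, against 38.4% and 0.444% of all genes. MCL1 was among the 7 here (−1.53 ± 0.47, limma adjusted p = 0.0313), with BCL2 (−2.60 ± 0.69, adjusted p = 0.0219), BCL2L11 (−1.06 ± 0.24), BCL2L1 (−0.93 ± 0.22), BAX (−0.72 ± 0.22), BAK1 (−0.65 ± 0.21) and BAD (−0.64 ± 0.19). BID (−0.59 ± 0.23, adjusted p = 0.0732), PMAIP1 (−0.54 ± 0.43) and BBC3 (0.01 ± 0.20) were not called. The median was −0.69 over the 10 genes and −0.89 over the genes above the median row, of which 59% were called lower. With only the arrays of the comparison BID was called too (adjusted p = 0.00637), without the 3 arrays BID and PMAIP1 were (adjusted p = 0.0102 and 6.19e-05), with 49.2% and 54.5% of all genes lower, and with the replicate number as a block BAK1 was not (adjusted p = 0.0518). The number of called members was 0 to 5 when each array of the comparison was left out in turn. It was 0 without any 1 of the Kelly DMSO arrays, the IMR-32 400 nM arrays, IMR-32 DMSO replicate 2 or Kelly 400 nM replicate 1, 4 without IMR-32 DMSO replicate 1 and 5 without Kelly 400 nM replicate 2.

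Because the scaling between arrays sets the zero of every change, the values were also taken after centring each array on the median of all its rows and after quantile normalization. In IMR-32 at 400 nM these moved the median of all genes from −0.67 to 0.37 and 0.18, and the calls over all genes from 7123 lower and 72 higher to 2881 lower and 3415 higher, and to 2010 lower and 1353 higher. BCL2 remained called lower under both, at −2.41 ± 0.66 (limma adjusted p = 0.0229) and −2.16 ± 0.65 (adjusted p = 0.0417). BBC3 was called higher under both, at 0.89 ± 0.28 (adjusted p = 0.0359) and 1.32 ± 0.30 (adjusted p = 0.0179). BAX (0.04 and 0.39) and BAD (0.05 and 0.45) turned to values above 0, BAK1 (−0.03 and 0.46) and BID (−0.11 and 0.11) did so after quantile normalization, and MCL1 stayed below 0 at −0.62 and −0.91. Averaged over both lines, MCL1 (−0.79 and −0.96) and BCL2 (−1.87 and −1.68) were called lower and BBC3 (0.74 and 1.09) was called higher under both of these scalings. Of all genes, 18.7% and 13.7% were called lower there and 27.9% and 14.2% higher, so calls in both directions were common.

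**Figure D3:**
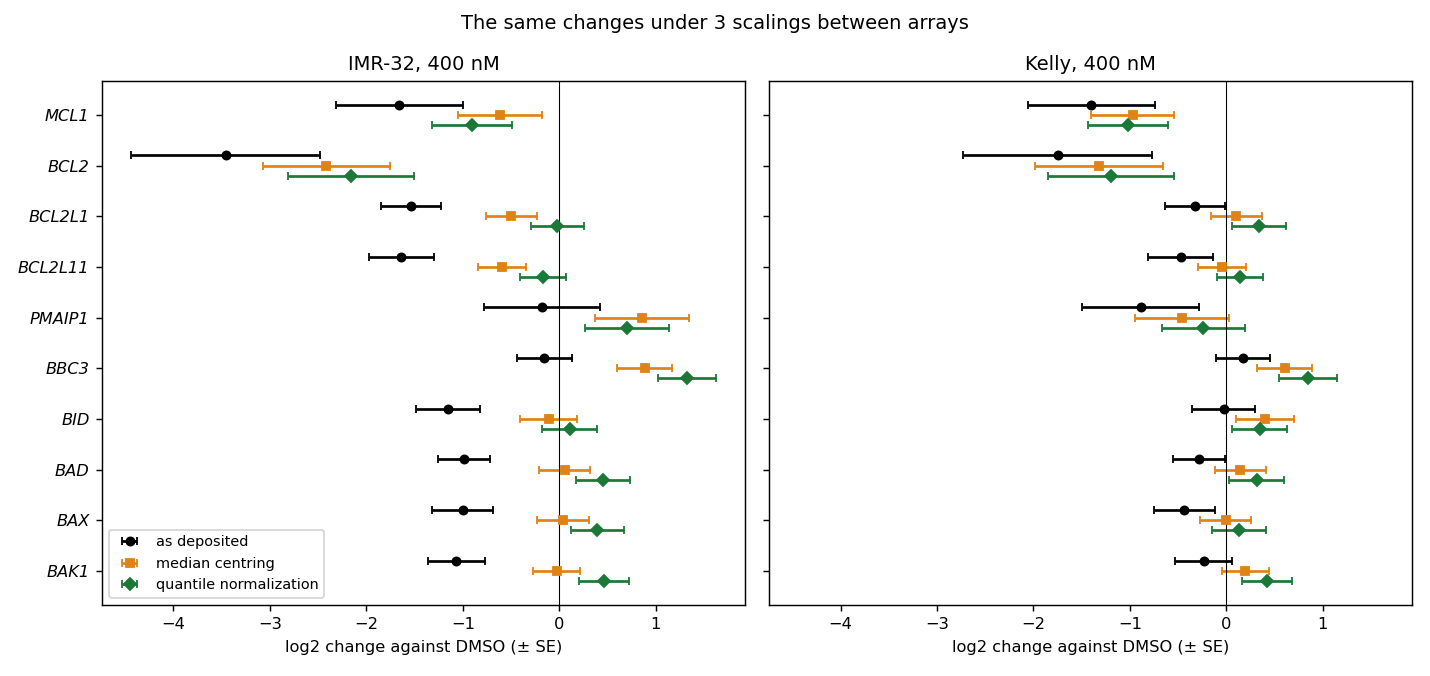
Change of each gene at 400 nM THZ531 against DMSO with SE bars, with the deposited scaling, after median centring and after quantile normalization. In IMR-32 (left) BCL2 stays below 0 under all 3, at −3.46, −2.41 and −2.16, while BAX, BAD, BAK1 and BID shift to around or above 0 and BBC3 shifts from −0.16 to 0.89 and 1.32.

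A difference between genes on the same array does not depend on a single scaling factor for that array. It does depend on scalings that vary with intensity, such as a loess fit or quantile normalization, where the genes differ in level. Taken this way, BCL2 changed by −3.64 and −2.96 relative to BBC3 in the IMR-32 400 nM duplicates, and by −2.45 and −1.39 in the Kelly duplicates. MCL1 changed by −1.51 and −1.50 relative to BBC3 in IMR-32 and by −2.14 and −1.01 in Kelly. Relative to PMAIP1, the gene for its BH3-only partner, MCL1 changed by −1.45 and −1.50 in IMR-32 and by −0.43 and −0.59 in Kelly. BAX relative to BAK1 moved by 0.02 and 0.12 in IMR-32. These pairs were chosen after their values were seen and have no test, and the first 3 have the same sign on all 4 treated arrays at 400 nM.

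No member was called between Kelly and IMR-32 in DMSO, where 3.02% of all genes were called lower and 1.98% higher in Kelly. Kelly arrays lay wholly below IMR-32 for 4 of the 10 genes, against 37.8% of all genes, and BID lay wholly above. PMAIP1 had the widest gap, with 8.92 and 8.53 in Kelly and 10.64 and 10.94 in IMR-32, a difference of −2.07 ± 0.60, or 4.20-fold (limma adjusted p = 0.104). PMAIP1 also ranged from 10.45 to 11.24 on all 6 IMR-32 arrays and from 6.89 to 8.92 on all 6 Kelly arrays, so the lines did not overlap at any dose. The next gaps were those of BCL2 (−1.28 ± 0.98), BCL2L11 (−0.76 ± 0.34) and MCL1 (−0.62 ± 0.66), and BAX, BAD, BCL2L1, BBC3 and BAK1 differed by no more than 0.22 either way. PMAIP1 was called under median centring (−1.85 ± 0.49, adjusted p = 0.0323) and quantile normalization (−2.01 ± 0.43, adjusted p = 0.0111). With the spread taken from the DMSO arrays alone, PMAIP1, BCL2 and BCL2L11 were called, as were 18.4% of all genes lower. Every member had the same SE of 0.255 in that fit, so it is not the spread of each gene. Without the 3 arrays the change of MCL1 was the same, with an SE of 0.222. Those arrays were picked because they stood apart and enter this comparison only through the spread, so a smaller SE was built in.

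The genes span very different lengths of genome (GRCh38.p14 annotation). BCL2 is by far the longest at 196.7 kb (chr18:63123346-63320090), and PMAIP1, which lies on the same chromosome, is the shortest at 4.31 kb (chr18:59899996-59904305). MCL1 is nearly as short at 5.05 kb (chr1:150574558-150579610). Between them lie BAX (6.92 kb), BAK1 (7.73 kb), BBC3 (12.0 kb), BAD (14.9 kb), BID (40.5 kb), BCL2L11 (47.5 kb) and BCL2L1 (59.5 kb). In IMR-32 at 400 nM the order of span and the order of change had a Spearman rho of −0.50 over the 10 genes and of −0.80 over the 9 genes other than MCL1, left out after its value was seen. Over 18198 genes rho was −0.28. In Kelly the values were 0.03 and −0.17, and −0.26 over all genes. The points of each rho share their arrays and its scaling, and are given as a description. MCL1, with −1.66 ± 0.66 at 5.05 kb, lay below the median change of −0.44 of the genes of like span, a bin of 1820 genes. It was not called, and 22.7% of all genes had a larger fall. BCL2, with −3.46 ± 0.98, lay below the median of −0.85 of the bin with the longest genes. The bins hold genes of all levels and their spread is not given, while genes above the median row had a median of −1.20.

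**Figure D4:**
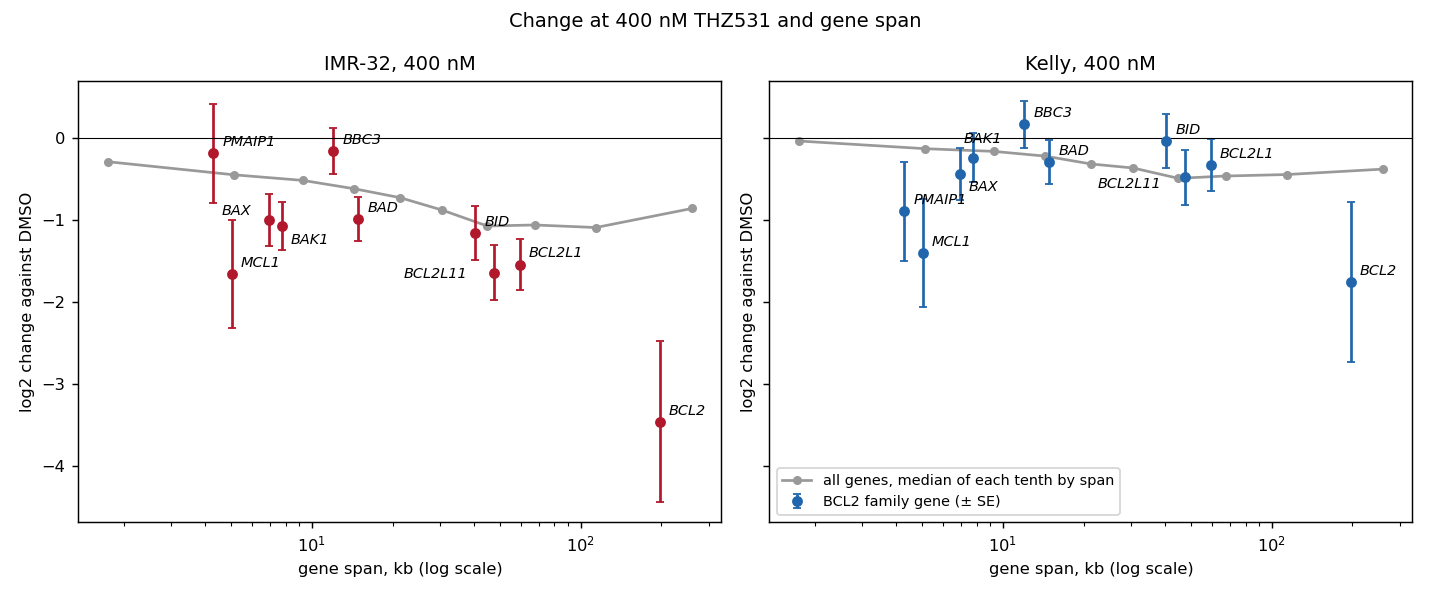
Change at 400 nM THZ531 against gene span (log axis) for the 10 genes, with SE bars, in IMR-32 (left) and Kelly (right). The grey line joins the medians of all genes in 10 bins by span, which run in IMR-32 from −0.28 at a median span of 1.74 kb to −1.09 at 114 kb. BCL2 lies below the line in both lines of cells, as does MCL1.

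BCL2 and PMAIP1 stand at opposite ends of the order of span and near opposite ends of the order of change in IMR-32, and the 250 bases before their RefSeq start sites (GRCh38.p14) are therefore shown. The BCL2 window is chr18:63319770-63320019 on the minus strand, just inside the annotated gene, which begins farther upstream, and the PMAIP1 window is chr18:59899746-59899995 on the plus strand. Capitals mark the GC box GGGCGG and the cAMP response half-site TGACG, on either strand.
BCL2: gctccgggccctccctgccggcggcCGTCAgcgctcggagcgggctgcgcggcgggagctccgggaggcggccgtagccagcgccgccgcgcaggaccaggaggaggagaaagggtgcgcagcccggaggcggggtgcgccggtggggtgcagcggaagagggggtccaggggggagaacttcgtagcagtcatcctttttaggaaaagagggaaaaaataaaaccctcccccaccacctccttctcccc
PMAIP1: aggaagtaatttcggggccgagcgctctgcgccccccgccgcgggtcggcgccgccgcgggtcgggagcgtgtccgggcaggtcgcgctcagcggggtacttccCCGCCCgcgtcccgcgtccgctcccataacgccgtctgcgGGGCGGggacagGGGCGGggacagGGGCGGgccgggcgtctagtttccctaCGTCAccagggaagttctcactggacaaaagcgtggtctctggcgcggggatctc
The PMAIP1 window held 4 GC boxes and 1 half-site, and the BCL2 window held 1 half-site and no GC box. No base belonged to more than 1 match. GC boxes were present in 42.6% and half-sites in 21.2% of the 35116 windows of this length in the table. The CCAAT box CCAAT (32%), the TATA box TATAA (18.9%) and the p53 half-site consensus (5.57%), likewise searched on both strands, had no match in either window. Over the members, 9 genes had a window and 15 windows were searched, of which 10 held a GC box. Those 10 belonged to BAD, BAK1, BAX, BCL2L11, BID and PMAIP1. Windows of BID and of BAD overlap, so the same bases were counted more than once. These are matches of letters and no measure of binding, and the arrays do not read the promoter.

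Most genes had several probe sets, which tested whether the leading one stood for its gene. In a limma fit over all probe sets, 37.8% of the leading probe sets of all genes were called lower in IMR-32 at 400 nM. There all 6 probe sets of MCL1 were below 0, from −2.26 to −0.21, and 3 of them were called lower. All 6 of BCL2 were below 0 and 4 were called. The leading BCL2 probe set (−3.46) and the next one (−3.32) had far lower values than the pair that followed by level (−0.32 and −0.31), so the probe sets of this gene did not move alike. Both probe sets of BAX, 4 of 5 of BAK1, 3 of 4 of BID, 2 of 3 of BCL2L1 and 1 of 2 of BAD were called lower. The BAK1 probe sets ran from −2.30 to −0.38, and the remaining one of BCL2L1 had 0.46. BCL2L11 had 14, of which 4 lay above the median row on average. Over the 14, 9 were below 0 and 4 were called lower, in a range from −1.98 to 1.29, and with the mean of all its probe sets the gene was no longer called (−0.56 ± 0.25). PMAIP1 (−0.18 and −0.52) and BBC3 (−0.16 and 0.11) had no probe set called in either direction. With the mean of its probe sets MCL1 was called (−1.58 ± 0.52), and the changes of other called genes moved to −1.60 for BCL2, −0.60 for BCL2L1 and −1.61 for BAK1.

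**Figure D5:**
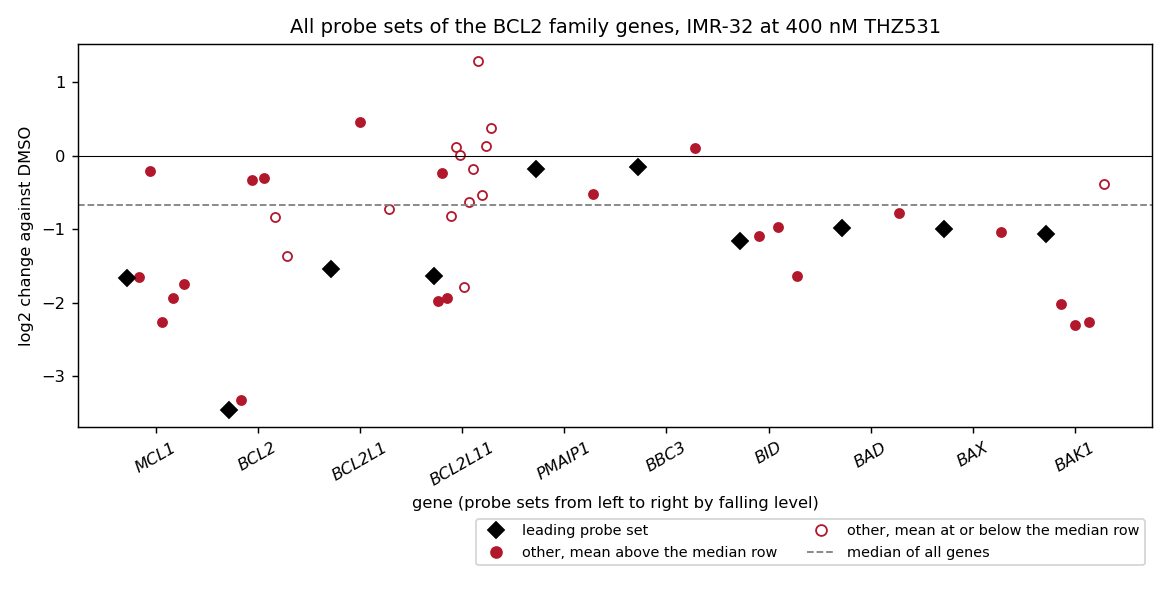
Change of all 46 probe sets of the 10 genes at 400 nM THZ531 in IMR-32, ordered by level within each gene (diamond, leading probe set; open circle, mean at or below the median row; dashed line, median of all genes at −0.67). The leading probe set lies within the range of the other probe sets of MCL1, BCL2L11, BID and BAK1, and BCL2 has a pair of probe sets near −0.3 beside a pair below −3.3.

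Other genes of the pathway were taken from lists chosen with earlier results of these data known. Of 11 further BCL2 family genes, 5 were called lower and none higher in IMR-32 at 400 nM, against the 39% of all genes, and the median was −0.65. The 5 were BCL2L2, the guardian BCL-w (−2.51 ± 0.72), the BH3-only genes BMF (−0.87 ± 0.25) and HRK (−0.82 ± 0.23), BCL2L12 (−0.82 ± 0.23) and BOK, an effector-like member (−0.65 ± 0.23). BCL2L13 (−0.65 ± 0.23, limma adjusted p = 0.0512) missed the threshold narrowly. BCL2L15 (−0.56), BIK (−0.35), BCL2L10 (−0.10), BCL2L14 (−0.10) and BCL2A1 (0.08) were not called, and 6 of the 11 lay above the median row on average. In Kelly none of the 11 was called, and the lowest values were those of BCL2L2 (−1.62 ± 0.72) and BIK (−1.05 ± 0.31).

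Downstream of the mitochondria, 11 of 13 measured genes of the apoptosome, caspases and inhibitors of apoptosis were called lower in IMR-32 at 400 nM, with a median of −1.87. The background for this and the next lists is the 39% called and median of −0.67 of all genes, or the 58.9% and −1.20 of genes above the median row, where 12 of these 13, 5 of 9 death receptor genes and 13 of 15 regulators lay. DIABLO, which encodes the mitochondrial antagonist of these inhibitors SMAC, changed by −2.16 ± 0.51, the initiator caspase gene CASP2 by −2.01 ± 0.49 and ENDOG, a mitochondrial nuclease gene, by −1.68 ± 0.41. Of 9 measured death receptor genes, 5 were called lower (median −0.99), with FADD, the adaptor that recruits caspase-8, at −3.41 ± 0.75, the receptor gene FAS at −1.43 ± 0.35 and TNFRSF1A, a TNF receptor gene, at −1.64 ± 0.40. FAS had a mean level of only 4.74, below the median row. Of 15 measured regulators of family members, 9 were called lower (median −1.30), among them E2F1 (−2.04 ± 0.42), a transcription factor of cell cycle entry that can induce BH3-only genes, FBXW7 (−2.55 ± 0.56), the ubiquitin ligase subunit that targets MCL1 protein, and ATF4 (−1.30 ± 0.31), a stress factor that can induce PMAIP1. No gene of these 3 lists was called higher in IMR-32, and none was called in Kelly. These lists were not tested as sets.

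Over the 12 arrays, the genes whose levels ran most like those of MCL1 were DERL1 (Pearson r = 0.994), ELOVL5 (0.992) and ZNF551 (0.991), out of 10486 genes above the median row. At 400 nM their changes were −1.32, −1.51 and −1.34 in IMR-32 and −1.07, −1.28 and −1.26 in Kelly, beside −1.66 and −1.40 for MCL1. For PMAIP1 they were NAP1L3 (0.989), DCX (0.985) and TMEFF1 (0.984), whose changes in IMR-32 were −0.55, −0.44 and −0.46. The arrays of a line share its baseline and each array its scaling, so these values describe likeness of pattern over 12 points that are not independent.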

How the data were processed

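The table deposited by the authors gives 1 linear intensity per probe set on each array, already normalized. The submitters' processing notes name MAS5, affy and R 3.1.3, and per the study's methods the values were renormalized by a loess fit to ERCC spike-in probes. Intensities ran from 0.893 to 33557. Groups came from the labels. Here intensities were log2 transformed without a pseudocount and kept at the deposited scaling. Gene symbols came from GEO's annotation of the platform, brought up to date by gene ID, with 45278 rows carrying 1 symbol, 1333 several and 2878 not listed, and rows with several symbols or none were left out. The probe set with the highest mean stood for each gene. Under R 4.3.3, limma 3.58.1 (lmFit, then eBayes) was fitted to the means of the 6 groups (6 residual degrees of freedom, prior 2.85, prior SD 0.297), and contrasts were tested two-sided at an FDR of 0.05. The fit was tested on simulated data. The spread shared by the 6 groups includes that of duplicates that stood apart, and p-values measure only the spread between duplicates. The number of arrays limits the precision.

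The members, the gene lists and the alternatives were chosen with earlier results of these data known. All 10 members were named in every comparison, with at most 3 genes by smallest unadjusted p from each of 3 further lists, all measured genes of the list of other BCL2 family genes, and the 3 genes most correlated with MCL1 and with PMAIP1. Alternatives were median centring, quantile normalization, shifting arrays to equal ERCC means, averaging a gene's probe sets, each probe set separately, genes above the median row, a pseudocount of 16, only the arrays of a comparison, eBayes with trend and robust options, a replicate block, leaving out each array and leaving out 3 arrays together. Other software was jsonlite 2.0.0, pandas 2.3.3 and, for the figures, matplotlib 3.10.9. Promoter sequences came from RefSeq (GRCh38.p14), where 9 of the 10 members matched.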

Additional observations from a re-analysis of the deposited data

How the results depend on the processing

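With 2 arrays a group, the 7 calls in IMR-32 at 400 nM rest on all 4 arrays of that comparison. Leaving out each array gave 0 called members there (range 0 to 0), 0 to 5 in the mean of both lines, 0 to 7 in IMR-32 at 100 nM (7 without 100 nM replicate 2) and 0 to 7 in the IMR-32 dose step (7 without 100 nM replicate 1). Median centring and quantile normalization each gave 1 member lower and 1 higher in IMR-32 at 400 nM, 2 lower and 1 higher in the mean of both lines, and 1 lower between the lines in DMSO. Of all genes, these scalings called 15.8% and 11% lower and 18.7% and 7.42% higher in IMR-32 at 400 nM. In the mean of both lines they called 18.7% and 13.7% lower and 27.9% and 14.2% higher, and between the lines 4.75% and 4.83% lower. Trend and robust options gave 4 lower in the mean of both lines and 6 in IMR-32 at 400 nM, where BAX was lost. Of all genes, 36.5% and 36.2% were called lower in these fits. Without the 3 arrays (100 nM replicate 2 of both lines and Kelly 400 nM replicate 2), 3 members were lower in Kelly at 400 nM, 8 in IMR-32 at 100 nM, 1 in Kelly at 100 nM, 3 in the Kelly dose step (1 array against 1, picked so that they lie far apart), 4 between the lines in DMSO, and 3 lower with 1 higher in the difference between the lines. With only the arrays of the comparison, 3 were lower in that difference and 3 between the lines in DMSO. The cause was not tested. Fits on fewer arrays have fewer residual degrees of freedom. With only the arrays of the comparison, however, every member had the same SE in IMR-32 at 400 nM (0.256) and between the lines in DMSO (0.255). In these fits the spread was shared over all genes, so their p-values do not rest on fewer degrees of freedom.

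Signs turned in the following cases. In IMR-32 at 400 nM, median centring put PMAIP1 at 0.86, BBC3 at 0.89, BAX at 0.040 and BAD at 0.054. Quantile normalization put PMAIP1 at 0.70, BBC3 at 1.32, BAX at 0.39, BAK1 at 0.46, BID at 0.11 and BAD at 0.45. In Kelly at 400 nM, median centring put BCL2L1 at 0.10, BAK1 at 0.20, BID at 0.40 and BAD at 0.14. Quantile normalization put BCL2L1 at 0.34, BCL2L11 at 0.14, BAX at 0.13, BAK1 at 0.42, BID at 0.34 and BAD at 0.31. The mean of all probe sets put BCL2L11 at 0.0057, and without the 3 arrays BBC3 was at −0.13 and BID at 0.13. Leaving out single arrays gave −0.35 to 0.041 for BBC3 in IMR-32, and −1.83 to 0.049 for PMAIP1, −0.13 to 0.47 for BBC3 and −0.18 to 0.13 for BID in Kelly.

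Replicate numbers did not pair the samples over both lines, since of 15 correlations of deviations between same-numbered arrays, from −0.781 to 0.363, 7 were over 0.1. The 3 within IMR-32 were over 0.1 (0.244, 0.159 and 0.273), a hint from the data and not from the labels. With the replicate number as a block, 7 members were called lower in IMR-32 at 400 nM, 6 in the mean of both lines and 0 in Kelly at 400 nM, with 6210 genes lower and 66 higher in IMR-32.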
